A study of Mus musculus with 6 samples.

Results

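The keratin genes Krt7, Krt8, Krt18, Krt19 and Krt20, which serve simple epithelia and the umbrella cells of the bladder surface, were followed in the bladders of E14.5 mouse embryos. They were chosen by name, as the array features whose single annotated gene symbol was one of these 5, and each had 1 feature, so 5 of the 19938 genes with a single symbol were described. The study compared 3 samples labelled Klf5 ∆/∆, in which Klf5, a zinc-finger transcription factor of epithelia, is deleted on both alleles, with 3 control samples labelled Klf5+/+ShhGfpCre+, which have intact Klf5 and carry an allele that makes Cre recombinase in cells expressing Shh. The labels name ShhGfpCre for the controls only, and they do not say which Cre made the deletion. Every sample was a pool of 2 bladders, hybridised to 1 Affymetrix Mouse Gene ST array, and nothing in the labels says whether the pools came from separate litters, so p-values measure the spread between these pools. The source is labelled as urothelium, but the protocol names whole bladders, and the smooth muscle gene Acta2 read 13.97 to 14.16 and the mesenchymal gene Vim 13.59 to 13.81 on the log2 scale on the 6 arrays, so muscle and mesenchymal RNA was measured too. In RNA of a whole organ, fewer epithelial cells and less keratin RNA per epithelial cell cannot be told apart.

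Keratins form the intermediate filaments of epithelial cells and assemble only as pairs of an acidic type I and a basic type II chain. Krt7 and Krt8 code for type II chains, and Krt18, Krt19 and Krt20 for type I chains. Krt8 and Krt18 are the usual pair of simple epithelia and appear first in the embryo, Krt7 and Krt19 are added in ducts and in urothelium, and Krt20 is a late product of umbrella cells and of the intestinal lining. Mesothelium and the trophoblast of the placenta also make simple keratins.

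The stretches upstream of the keratin genes are shown because 3 of the 4 genes with a sequence here fell in the Klf5-deleted bladders and the 1 other, Krt20, did not pass the test. Each is the 250 bases before the annotated start, 5′ to 3′ on the gene's strand, from RefSeq on GRCm38.p6. Krt19 is named only. Capitals mark matches on either strand to CACCC (the CACCC box of Krüppel-like factors), CCGCCC (the GC box shared with Sp factors), GCCNNNGGC (a motif of AP-2 factors) and TATAAA (the TATA box).
Krt7 (chr15:101412153-101412402, plus strand): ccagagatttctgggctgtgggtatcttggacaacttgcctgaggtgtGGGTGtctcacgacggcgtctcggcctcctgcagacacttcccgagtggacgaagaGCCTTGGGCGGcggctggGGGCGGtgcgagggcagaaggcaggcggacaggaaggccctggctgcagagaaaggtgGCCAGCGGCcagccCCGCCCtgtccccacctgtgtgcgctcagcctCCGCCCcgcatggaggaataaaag
Krt8 (chr15:102004343-102004592, minus strand): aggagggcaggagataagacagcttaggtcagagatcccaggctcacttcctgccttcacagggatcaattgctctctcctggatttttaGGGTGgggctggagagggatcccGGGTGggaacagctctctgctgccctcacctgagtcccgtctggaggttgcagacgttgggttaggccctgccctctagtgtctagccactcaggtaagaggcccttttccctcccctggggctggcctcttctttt
Krt18 (chr15:102027966-102028215, plus strand): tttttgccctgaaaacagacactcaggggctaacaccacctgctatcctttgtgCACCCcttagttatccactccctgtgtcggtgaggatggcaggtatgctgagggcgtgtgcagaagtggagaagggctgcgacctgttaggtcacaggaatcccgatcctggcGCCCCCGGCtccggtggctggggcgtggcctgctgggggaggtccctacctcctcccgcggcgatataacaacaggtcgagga
Krt20 (chr11:99438154-99438403, minus strand): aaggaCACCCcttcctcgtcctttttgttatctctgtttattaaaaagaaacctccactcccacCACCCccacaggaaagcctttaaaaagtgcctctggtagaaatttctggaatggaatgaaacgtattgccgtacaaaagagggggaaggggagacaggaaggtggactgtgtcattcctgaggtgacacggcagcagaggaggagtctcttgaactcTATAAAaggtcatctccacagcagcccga
CACCC had 1 match before Krt7, 2 before Krt8, 1 before Krt18 and 2 before Krt20. Of 27025 RefSeq promoters of the same length, 51.3% held it. CCGCCC had 4 matches before Krt7 and none before the others, against 32.9% of all promoters with at least 1. GCCNNNGGC had 2 matches before Krt7, of which the farther shares bases with a GC box on the other strand, and 1 before Krt18, and 13.6% of all promoters held it. TATAAA matched only before Krt20, with its first base 29 bases before the start, and 13.0% of all promoters held it. Guanine and cytosine made up 66.0% of the Krt7 stretch, 58.0% for Krt8, 60.4% for Krt18 and 48.0% for Krt20, against a median of 52.0%. These matches describe letters in these windows and not binding.

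The arrays were comparable at large, with control 2 apart. The median feature read 7.68 to 7.80 on the 6 arrays, and Pearson's r between control 2 and the other 5 arrays, across genes, was 0.986 to 0.989, while the other 5 arrays correlated at 0.989 to 0.996. Klf5 itself read 10.12, 10.34 and 10.23 on the Klf5-deleted arrays and 10.84, 10.63 and 10.97 on the controls, a fall of 0.59 in log2 (adjusted p = 0.0381 by limma). The groups did not overlap. The part of Klf5 that the feature covers is not given in the sources used here, and the call held in 1 of the 6 fits that left out an array. The trophoblast gene Tpbpa read 13.13 on control 2, 10.34 on Klf5-deleted 2 and 6.18 to 8.35 on the other 4 arrays. Trophoblast makes simple keratins, so values without control 2 are given beside the results that it moves.

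In the Klf5-deleted bladders 4 of the 5 keratins fell, and Krt20 did not pass the test. Krt7, Krt8, Krt18 and Krt19 were 2.74-fold to 3.40-fold lower. Among all 19938 genes 395 passed, or 1.98%, with 1.59% lower and 0.386% higher in the Klf5-deleted group. That whole count split into 318 falls and 77 rises, or 265 falls and 133 rises with arrays centred on housekeeping genes. All 5 keratins had groups that did not overlap, with the Klf5-deleted arrays lower, as had 11.8% of all genes. The median difference of the 5 keratins was -1.51 in log2, against -0.01 for all genes. Adjusted p-values here and below are from limma over all 19938 genes, with a threshold of 0.05.

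Krt8, the type II keratin present in nearly every simple epithelium, read 10.51, 10.72 and 10.69 on the Klf5-deleted arrays and 12.51, 12.21 and 12.50 on the controls. Every Klf5-deleted array lay more than a log2 unit below every control, and control 2 was the lowest control. The means were 10.64 ± 0.11 (SD, n = 3) and 12.41 ± 0.17 (SD, n = 3). The difference of -1.77 (95% interval -2.01 to -1.52, adjusted p = 0.00119 by limma) was a fall of 3.40-fold and the 32nd largest fall of the table.

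Krt18, the type I partner of Krt8, read 9.95, 10.36 and 10.29 on the Klf5-deleted arrays and 11.72, 11.67 and 11.78 on the controls. The controls lay close together, with an SD of 0.06, and the Klf5-deleted arrays were spread more, with an SD of 0.22 (n = 3 each). Krt18 fell by 1.52 (95% interval -1.78 to -1.26, adjusted p = 0.0014 by limma), which is 2.87-fold.

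Krt7, a type II keratin of ducts and urothelium, read 9.23, 9.04 and 8.80 on the Klf5-deleted arrays and 10.53, 10.51 and 10.57 on the controls. The controls differed among themselves by less than 0.1, and the lowest of them stood well above the highest Klf5-deleted array. The means were 9.02 ± 0.22 (SD, n = 3) and 10.54 ± 0.03 (SD, n = 3). Krt7 fell by 1.51 (95% interval -1.77 to -1.26, adjusted p = 0.0014 by limma), or 2.86-fold.

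Krt19, the type I keratin that lacks the usual tail domain, read 9.79, 10.23 and 9.97 on the Klf5-deleted arrays and 11.63, 11.12 and 11.61 on the controls. Control 2 read lower than the other controls, and the groups still did not overlap. The controls were spread more (SD 0.29, n = 3) than the Klf5-deleted arrays (SD 0.22, n = 3). Krt19 fell by 1.46 (95% interval -1.84 to -1.07, adjusted p = 0.00694 by limma), or 2.74-fold. Its standard error of 0.16 was the largest of the 5, and leaving out each array in turn gave adjusted p of 0.00152 (without control 2, where it fell by 1.62) to 0.0388 by limma.

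Krt20, the late umbrella-cell keratin, read 6.52, 6.38 and 6.52 on the Klf5-deleted arrays and 6.66, 6.75 and 6.63 on the controls. The ranges lay close together without overlapping. The difference was -0.21 (95% interval -0.37 to -0.04), with an unadjusted p of 0.0215 and an adjusted p of 0.247 by limma, so Krt20 did not pass. Its feature lay in the lowest 25% of genes by mean reading, below 6.72, where 0.261% of 4985 genes passed and 60.2% were lower in the Klf5-deleted group. No call above background could be made from the deposited values, and RMA values are known to understate the differences of dim features. Whether this applied to Krt20 was not tested.

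**Figure D1:**
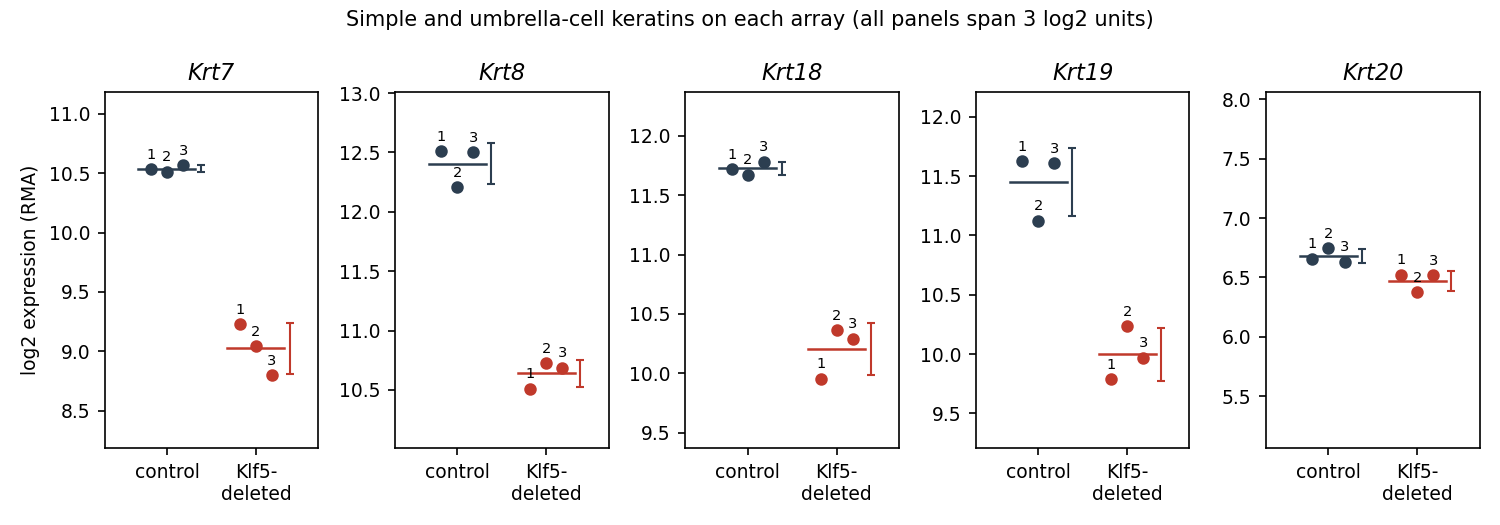
Log2 expression of the 5 keratins, 1 panel per gene, with each array as a point numbered by its replicate, a line at the group mean and a bar of 1 SD (n = 3). In 4 panels the group means differ by -1.77 to -1.46, and for Krt20 by -0.21; the axes of the panels span equal lengths but start at different readings.

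Ratios between the keratins set their readings side by side on the same array. The type II to type I log2 ratio of Krt8 over Krt18 was 0.55, 0.36 and 0.39 on the Klf5-deleted arrays and 0.79, 0.53 and 0.72 on the controls, ranges that overlapped. The ratio of Krt7 over Krt18 changed by 0.01 and that of Krt18 over Krt19 by -0.07, both with overlapping groups. Without control 2 these changes were 0.02 and 0.07. The log2 ratio of Krt8 over Krt19 was 0.72, 0.49 and 0.72 against 0.88, 1.08 and 0.89. It changed by -0.25 with control 2 left out and by -0.31 over all arrays, without overlap. Its exact two-sided permutation p was 0.1, the smallest that 3 arrays against 3 allow, with an adjusted p of 0.2 over the 10 pairs of keratins, so no pair could reach 0.05. Each of the 4 genes over Krt20 shifted by -1.56 to -1.25 without overlap, also with an exact p of 0.1. As the dim feature of Krt20 could not be called above background, these 4 ratios are not read as unequal change. A ratio between 2 features describes their readings and says nothing of which chain is more abundant. The share of all gene pairs apart was not computed.

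Within a group the arrays did not order the keratins alike. After group means were taken out, Krt8 and Krt19 deviated together (Pearson's r of 0.96 over 6 arrays), as did Krt8 and Krt18 (0.70). Krt7 deviated the other way from Krt18 (-0.66), being highest on Klf5-deleted 1, the array on which Krt18 was lowest. Krt20 ran against Krt19 (-0.91), as control 2 was the highest control for Krt20 and the lowest for Krt19. These values rest on 6 arrays that share their normalization and are given as descriptions.

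Epithelial genes that are not keratins were lower too. Of 17 such genes 11 fell, none rose and 6 did not pass, with a median of -1.07. The surface glycoprotein gene Prom2 fell by 1.95, the splicing regulator gene Esrp2 fell by 1.25 and the protease inhibitor gene Spint2 fell by 1.08. The gene of E-cadherin, Cdh1, fell by 1.50. Epcam, the epithelial adhesion molecule, read 8.78, 9.71 and 8.98 on the Klf5-deleted arrays and 9.43, 9.43 and 9.78 on the controls, which gave -0.39 (adjusted p = 0.521 by limma). The number of falls was 7 without control 1. The list's other genes that did not pass were Cldn7 (-0.76), Cldn3 (-0.29), Lsr (-0.26), Cd24a (0.09) and Cldn6 (0.38).

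On each array a keratin's reading was set against the mean of these 17 genes. Krt8 stood 1.52, 1.47 and 1.45 above that mean on the Klf5-deleted arrays and 2.37, 2.34 and 2.23 above it on the controls, a shift of -0.83. Krt18, Krt7 and Krt19 shifted by -0.59, -0.58 and -0.52 and Krt20 by 0.73. The shift of Krt20 is its own -0.21 less the -0.93 of the 17 genes. Without control 2 Krt8, Krt18, Krt7 and Krt19 shifted by -0.82, -0.50, -0.48 and -0.58 and Krt20 by 0.87. The groups were apart for each of the 5 keratins, but the share of all genes apart on this scale was not computed. With arrays centred on the 17 genes, limma called 77 of all 19938 genes lower and 19490 higher, so most genes moved up on this scale. For each of the 5 keratins the exact permutation p was 0.1, the smallest possible, and 0.1 adjusted over the 5. Against Cdh1 alone, a comparison chosen after the values were seen, Krt7, Krt18 and Krt19 shifted by -0.02, -0.02 and 0.04. Krt8 shifted by -0.27, all 4 with overlapping groups, and Krt20 by 1.29 without overlap. Without control 2 the shifts of Krt7, Krt18, Krt19 and Krt8 were 0.12, 0.10, 0.02 and -0.22. As the feature of Krt20 is dim, its shifts against the 17 genes and Cdh1 are not read as unequal change.

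**Figure D2:**
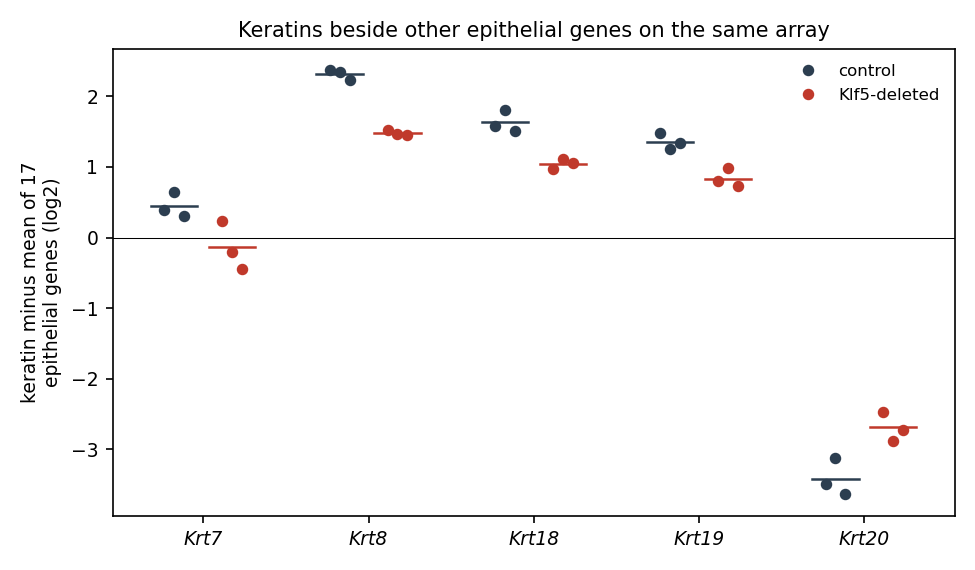
Each keratin's log2 reading minus the mean of 17 epithelial genes on the same array, with controls dark, Klf5-deleted arrays red and a line at each group mean (n = 3). Krt8 drops from between 2.23 and 2.37 to between 1.45 and 1.52. Krt20 moves up by 0.73 because the mean of the 17 genes differed by -0.93, while Krt20 itself differed by -0.21. Its dim feature could not be called above background.

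Uroplakins, the proteins of the umbrella-cell membrane plaques, were mostly lower by more than the keratins. Of 5 measured, 4 fell: Upk2 fell by 3.19, Upk1a fell by 2.72 and Upk1b fell by 2.35. Upk3b, which mesothelium also makes, did not pass, at -0.32 (adjusted p = 0.329 by limma). Against the mean of all 5, a comparison chosen after the values were seen, the log2 ratios of Krt7, Krt8, Krt18 and Krt19 shifted by 0.60, 0.35, 0.59 and 0.66. Without control 2 these shifts were 0.70, 0.37, 0.68 and 0.61. In all 4 the groups were apart, as they were for Krt20, which shifted by 1.91. The mean of the 5 uroplakins itself differed by -2.11, which raises every ratio to it. The share of all genes apart on this scale was not computed. The exact permutation p was 0.1 for each of these ratios, the smallest possible, or 0.167 adjusted over the 10 ratios to Cdh1 and uroplakins. Readings of different features were not compared as levels.

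Most other keratins on the array did not pass. Of 47 other keratin genes 3 fell and none rose, 44 were lower and 3 higher, and the median difference was -0.08; of all genes 53.5% were lower. Among the 25 other epithelial keratins the median was -0.10, and among 21 keratins of hair and the inner root sheath, of which none passed and 2 had an unadjusted p under 0.05, as had 14.4% of all genes, it was -0.07. Without control 2 these medians were -0.05 and -0.07. Krt15, a type I keratin of basal cells, fell by 1.43 (adjusted p = 0.00127 by limma) and passed in all 6 fits that left out an array. Krt4, a type II keratin of internal stratified epithelia, read 7.27, 6.80 and 7.53 against 9.05, 9.43 and 8.41 and fell by 1.77. Krt75, a type II keratin of the hair follicle that was counted here among the 25 other epithelial keratins, fell by 0.57. Krt4 and Krt75 did not pass without control 1, nor without Klf5-deleted 1 or 2, so that Krt15 alone remained.

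Other keratins of basal cells did not pass and varied among the controls. Krt5, the type II keratin of basal cells, read 10.49, 10.49 and 10.38 on the Klf5-deleted arrays and 9.85, 11.37 and 10.44 on the controls, a difference of -0.10 (95% interval -0.87 to 0.68, adjusted p = 0.938 by limma). Its usual partner Krt14 differed by -0.14 and Krt17 by -0.04. All 3 genes were highest on control 2 and lowest on control 1, and without control 2 they differed by 0.31, 0.21 and 0.28. Krt13, a type I keratin of stratified epithelia, differed by -0.06. On that same control 2, Krt8, Krt18, Krt7 and Krt19 were each the lowest of the controls. Of 6 genes of basal epithelium that are not keratins none passed, with 2 at an unadjusted p under 0.05; Trp63, the transcription factor of basal cells, differed by -0.24 and the integrin gene Itga6 by -0.17.

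**Figure D3:**
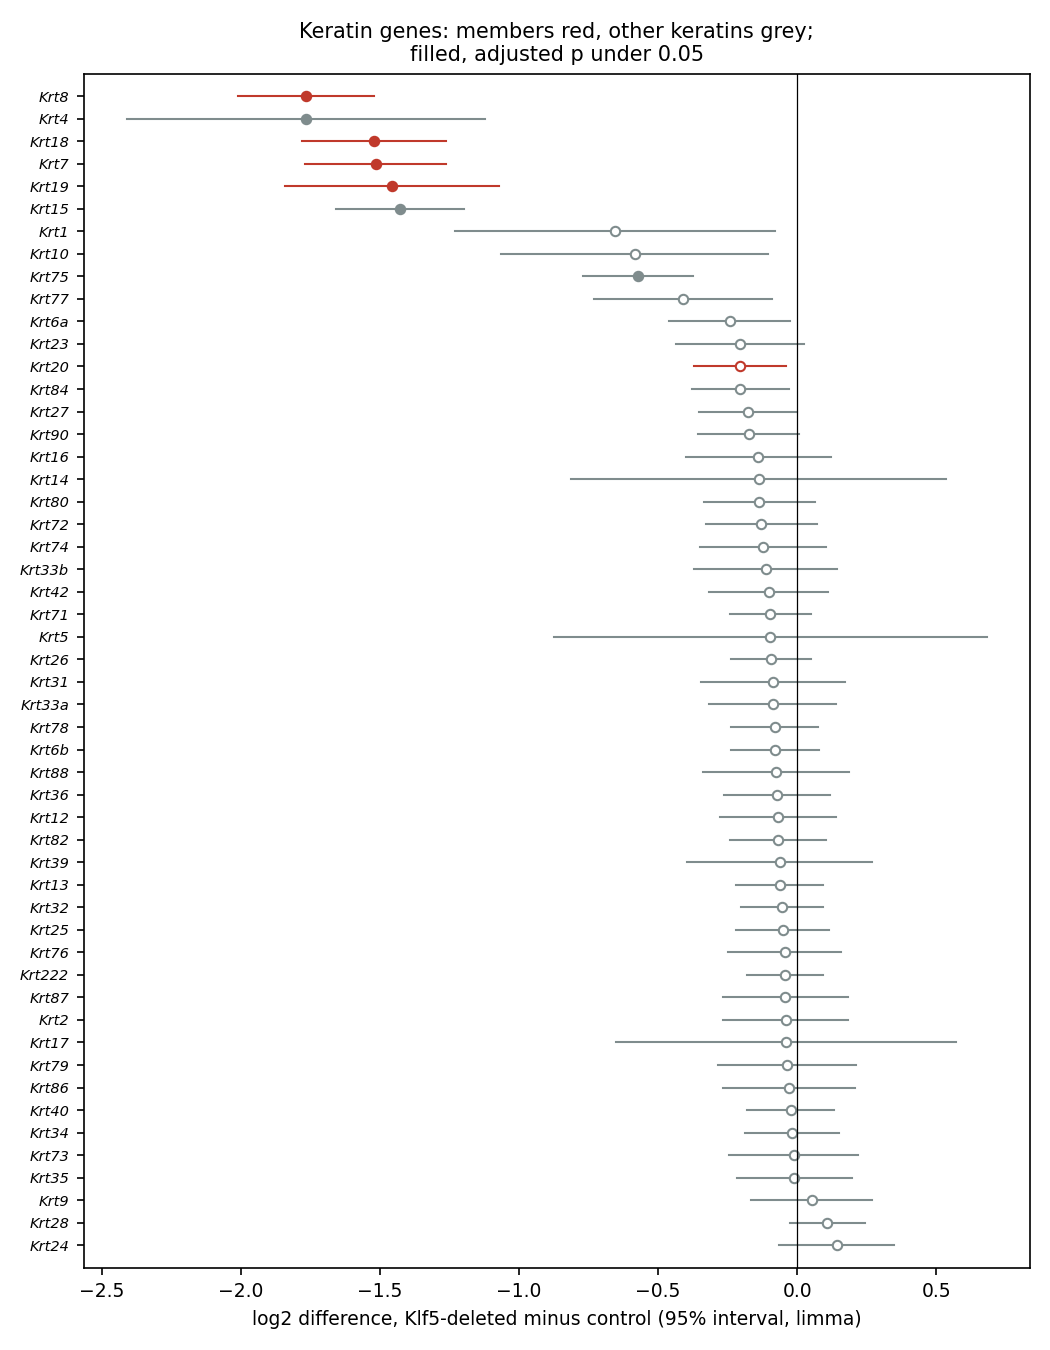
Log2 difference of every measured keratin gene, Klf5-deleted minus control, with limma's 95% interval; the 5 simple and umbrella-cell keratins are red, the other 47 grey, and filled points passed an adjusted p of 0.05. Krt8, Krt18, Krt7 and Krt19 lie with Krt4 and Krt15 between -1.77 and -1.43, and Krt20 lies at -0.21 among keratins that, Krt75 apart, did not pass.

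The genes next to the keratins on the chromosome were mixed. In RefSeq Krt8 and Krt18 are neighbours on chromosome 15, and both fell. Eif4b, the translation factor gene on the other side of Krt18, differed by -0.02, and Krt78, on the other side of Krt8, by -0.08. Krt80 and Krt87 flank Krt7 and differed by -0.14 and -0.04. On chromosome 11 Krt19 lies between Krt15, which fell, and Krt9, which differed by 0.05. Krt20 lies between Krt12 (-0.07) and Krt23 (-0.21), neither of which passed.

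Genes that anchor keratin filaments were partly lower. Of 17 measured, 4 fell, none rose and 13 did not pass, with a median of -0.26. Ppl and Evpl, which code for the plakins periplakin and envoplakin that tie filaments to desmosomes, fell by 1.17 and fell by 0.54 and passed in all 6 fits that left out an array. Fam83h, which codes for a protein that recruits a casein kinase to keratin filaments, fell by 1.17. Dsp, the main desmosomal linker, read 9.25, 9.56 and 9.46 against 9.84, 9.94 and 10.45, giving -0.65 (adjusted p = 0.117 by limma), and Plec, which links filaments to hemidesmosomes, differed by -0.25 (adjusted p = 0.123 by limma). The count was 2 without any Klf5-deleted array or without control 1. Of 12 keratin-modifying enzymes, partners and chaperones Sfn, a 14-3-3 protein of epithelia, fell by 1.13 and no other passed, with a median of -0.04, or -0.09 without control 2; without control 3 the small heat shock protein gene Hspb1 also passed.

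Intermediate filament genes other than keratins did not pass. Among 16 genes none passed, 1 had an unadjusted p under 0.05 and the median was -0.04, or 0.02 without control 2. The gene under 0.05 was the lamin gene Lmna, at -0.53 (adjusted p = 0.145 by limma). Vim differed by -0.09 and another lamin gene, Lmnb1, by 0.16. Without control 2 the neuronal filament gene Ina was called higher.

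Of 17 transcription factors of simple epithelium and umbrella cells 6 fell, none rose and 11 did not pass, with a median of -0.37. The 6 include Klf5 itself, the gene deleted here (-0.59), so its fall is not that of a further factor. Elf3, an ETS factor of epithelia, fell by 1.60, Pparg, the nuclear receptor of urothelial differentiation, fell by 1.78 and Grhl3, a factor of barrier epithelia, fell by 1.38. The count was 3 without Klf5-deleted 1 or 2. Among the factors that did not pass, Foxa1 differed by -0.89 and passed without control 2, and Cdx2, an intestinal activator of Krt20, differed by -0.06.

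Markers of other keratin-making cells were measured beside the keratins. Of 10 mesothelial genes 1 fell and 2 rose, 8 were higher, and the list's mean reading was 8.97 to 9.07 on the Klf5-deleted arrays and 8.80 to 9.03 on the controls. Msln, which codes for mesothelin, fell by 1.42, while Aldh1a2 and Wt1 rose by 0.63 and 0.54. Neither rise passed without control 1 or 3, nor without Klf5-deleted 1 or 2. Of 16 placental genes none passed, with 3 at an unadjusted p under 0.05, and the mean reading was 7.01 to 7.91 on the Klf5-deleted arrays, 7.09 and 7.46 on controls 1 and 3 and 9.13 on control 2. The median difference of the list was -0.38, or 0.13 without control 2. Without control 2 Krt8 fell by 1.87, Krt19 fell by 1.62, Krt18 fell by 1.55 and Krt7 fell by 1.53, each more than with it, and Elf5, which trophoblast shares with other epithelia, was called lower.

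In the lists for further tissues no gene passed over all arrays. None of 10 nephric duct, 10 intestinal, 3 epidermal and 7 yolk sac genes passed, with 4, 1, 1 and 0 at an unadjusted p under 0.05, and their medians were 0.02, -0.01, -0.39 and -0.05. Without control 2 the medians were 0.14, -0.02, -0.11 and 0.11, and Fabp1 of the intestinal list was called higher. None of 8 smooth muscle, 10 mesenchymal, 7 endothelial, 7 leukocyte, 5 erythroid and 5 neuronal and glial genes passed, with 5, 2, 2, 0, 0 and 0 at an unadjusted p under 0.05, against 14.4% of all genes. In the same order the list medians were -0.27, -0.05, -0.07, -0.15, 0.25 and 0.20, or -0.26, -0.07, -0.15, 0.03, 0.66 and 0.27 without control 2. The 8 smooth muscle genes were all lower. The mean of that list was 11.90, 12.05 and 12.13 on the Klf5-deleted arrays and 12.43, 12.29 and 12.12 on the controls. These ranges overlapped narrowly. The part of these cells in the keratin readings was not tested. None of 8 housekeeping genes passed, with 2 at an unadjusted p under 0.05 and a median of 0.00.

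**Figure D4:**
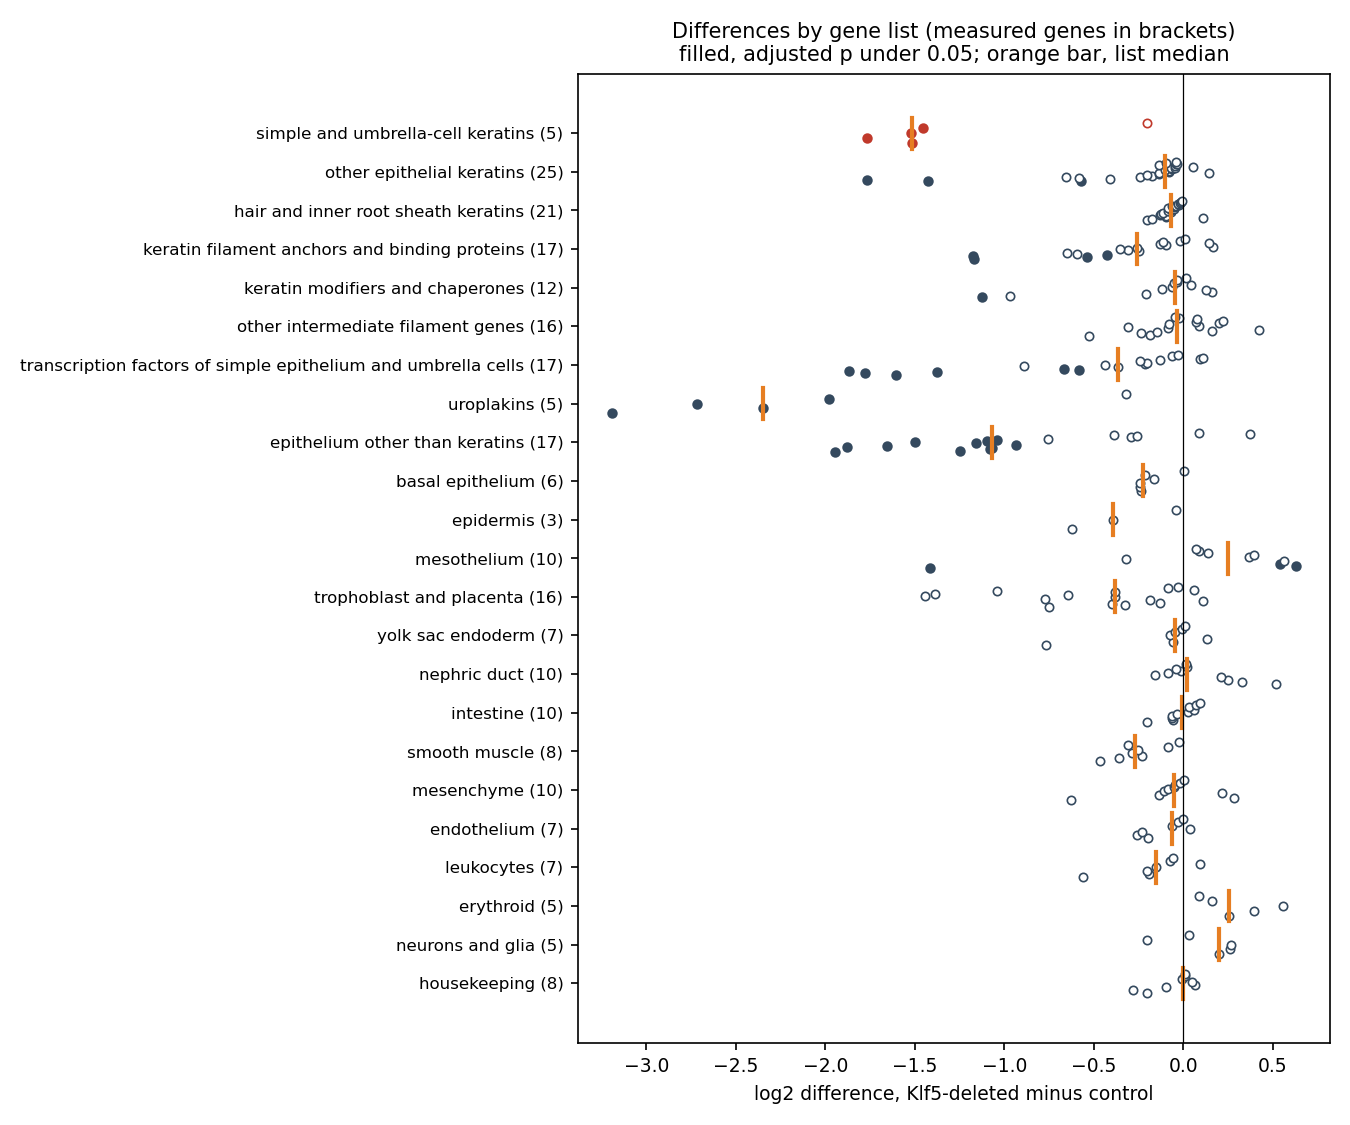
Log2 difference of each measured gene, Klf5-deleted minus control, by gene list, with filled points past an adjusted p of 0.05 and an orange bar at the list median. The simple and umbrella-cell keratins have a median of -1.51 and 1 open point, Krt20; the non-keratin epithelial genes centre on -1.07 and the uroplakins on -2.35, and the lists of other tissues lie nearer to 0.

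The genes most like each keratin over the 6 arrays were found by Pearson's r, as a description, since the 2 groups set most of the pattern. Krt8 was most like Sdc4, which codes for a cell-surface proteoglycan (r = 0.999), Camsap3, for a microtubule minus-end protein (0.998), and Ripk4, for a kinase of epithelial differentiation (0.998). Krt18 was most like Tmcc3, Pllp, for the membrane protein plasmolipin, and Ankrd22 (0.996 to 0.998). Krt7 was most like S100a16, for a calcium-binding protein, Cftr, for an epithelial chloride channel, and Psd4, for an exchange factor of Arf GTPases (0.995 to 0.996). Krt19 was most like Liph, a phospholipase gene, Bcl2l14, of the Bcl-2 family, and Pcdh1, a protocadherin gene (0.997 to 0.999). Krt20 was most like Pdlim2, of a PDZ and LIM domain protein, Derl3, of protein degradation at the endoplasmic reticulum, and Ndufa7, a subunit of respiratory complex I (0.994 to 0.997), none of which passed the test between genotypes. Of these 15 genes, 10 fell past the threshold, and Liph fell by 2.33. Cftr and Pcdh1 differed by -0.30 and -0.33 without passing. Such agreement is common in this table: 660 of 19938 genes had an r over 0.9 with Krt8 and 319 with Krt20.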

How the data were processed

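The authors deposited log2 expression values, 1 for each feature on each array, from RMA (background correction, quantile normalization and probe summary) per the submitters' processing notes. A log2 scale was read from the range of values, 3.24 to 14.6. No source used here gives the RMA version or the probe annotation. Of 35557 features 21789 had a single symbol in the platform's annotation and 1621 several, and 12147 were unnamed here. The brightest feature stood for each gene, which left 19938 genes, of which 19856 matched RefSeq (GRCm38.p6) by Entrez identifier. Groups were taken from the genotype labels.

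Expression was compared with limma 3.58.1 in R 4.3.3 (lmFit, eBayes, two-sided, 3 arrays against 3, Benjamini-Hochberg over all genes, threshold 0.05). Ratios between genes were tested by exact two-sided permutation of the arrays. On simulated data with 200 changed genes of 19938 in 10 runs, drawn with each gene's own spread, 90.8% of 2-fold and 48.6% of 1.41-fold changes were recovered. Noise was drawn independently for each gene, with no effect shared by the genes of an array. Control 2 stood apart among the real arrays, so these rates may not hold there. The number of arrays limits the precision. Alternatives were another variance model, scalings, filters, feature choices, array weights, a block and leaving out arrays.

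The 5 keratins and all gene lists were chosen with earlier results of these data known. Named genes were the 5 keratins, other keratins past the threshold, the 3 called genes of a list with the smallest adjusted p (or its 2 brightest), 10 fixed genes and the 3 genes most like each keratin; any others were chosen after their values were seen. Of the listed genes, those without a single-symbol feature were not analysed here. Keratins are a family with near copies, and the specificity of the probes was not examined.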

Additional observations from a re-analysis of the deposited data

How the results depend on the processing

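Under 14 alternatives the falls of Krt7, Krt8 and Krt18 kept their direction and their side of the threshold, and so did the fall of Krt19 in all but the replicate block. When each array in turn was left out, all 4 passed, with differences of -1.62 to -1.40 for Krt7, -1.87 to -1.70 for Krt8, -1.60 to -1.40 for Krt18 and -1.62 to -1.35 for Krt19, and the highest adjusted p by limma was 0.0388, for Krt19. Krt20 stayed lower at -0.23 to -0.16 and did not pass in these fits, and it was not in the fit that left out the lowest 25% of genes. With arrays centred on the 17 non-keratin epithelial genes, which adds 0.93 to every difference by construction, Krt20 reversed to 0.73 and 19567 genes were called, 77 lower and 19490 higher. The count of 395 genes was 218 with all 35557 features tested and 141 to 349 without 1 array; without Klf5-deleted 1, 2 and 3 it was 141, 172 and 253, and without controls 1, 2 and 3 it was 165, 349 and 261. With the replicate block 110 genes were called, and Krt19 kept its difference of -1.46 at an adjusted p of 0.0671 by limma. The labels number the arrays of the 2 groups alike and do not say whether same-numbered arrays were paired. The deviations of same-numbered arrays from the group means correlated at 0.01, 0.03 and 0.08 across genes. Of the 6 arrays, 5 correlated best with their own number, while Klf5-deleted 1 did so with control 2 (0.011 against 0.009). Correlations this near 0 cannot tell whether the arrays were paired. Centring on 8 housekeeping genes added 0.06 to every difference and changed no keratin's call. How far a dim feature such as that of Krt20 stands above background could not be read from these values.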
